A study of Homo sapiens with 4 samples.

Results

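The genes described here are 10 chemokine ligands of A375, an established human melanoma cell line: CCL2, CCL20, CXCL1, CXCL2, CXCL3, CXCL5, CXCL6, CXCL8, CXCL16 and CX3CL1. They were taken by symbol from a table of 56832 genes, and all 10 were found, CXCL8 under its current name. The set was chosen by measured values: it was put together with the normalised counts and the octanoate and vehicle differences of these same libraries in view. Their differences between the groups are therefore given as a description, with no p-value, and nothing is supported with them. Per the labels, the cells were of wild-type genotype, grew in DMEM with serum, and received either octanoate at 1 mM, a medium-chain fatty acid, or the solvent isopropanol alone. Both groups were collected at 48 h, with 2 RNA libraries each, named vehicle 1, vehicle 2, octanoate 1 and octanoate 2. No label says that the replicates were separate cultures, so the spread between them may be technical. A single line without immune or stromal cells cannot show what the ligands would attract.

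Chemokines are small secreted proteins that draw leukocytes along a concentration gradient and act through G protein-coupled receptors. Their names come from the spacing of conserved cysteines near the amino terminus: adjacent in the CC family, 1 residue apart in CXC and 3 residues apart in CX3C. CXCL1, CXCL2, CXCL3, CXCL5, CXCL6 and CXCL8 attract mainly neutrophils through the receptors CXCR1 and CXCR2. CXCL8, also called interleukin-8, and CXCL1, first isolated as a melanoma growth-stimulating activity, are known products of melanoma cells. The inflammatory members are classical targets of NF-kappaB, and many of their mRNAs carry AU-rich elements that shorten their life.

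In GENCODE 29, 6 of the 10 genes lie in 1 stretch of 359 kb on chromosome 4 of GRCh38. CXCL8 lies at chr4:73740506-73743716, CXCL6 at chr4:73836497-73849064 and CXCL1 at chr4:73869393-73871242, all on the plus strand. CXCL5 lies at chr4:73995642-73998779, CXCL3 at chr4:74036589-74038807 and CXCL2 at chr4:74097035-74099293, all on the minus strand. The other 4 are dispersed. CCL20 lies at chr2:227805739-227817564 and CX3CL1 at chr16:57372458-57385048, both on the plus strand. CCL2 at chr17:34255218-34257203 (plus strand) and CXCL16 at chr17:4733526-4739922 (minus strand) share a chromosome but not a cluster.

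RefSeq promoters (GRCh38.p14, from 250 bases before to 50 after the gene start) were found for 7 of the 10 genes. The 140 bases before the RefSeq start are printed 5′ to 3′ on the strand of each gene. Only for CXCL1 is this start also that of the GENCODE gene. The windows of CXCL6 and CCL20 lie wholly inside the GENCODE gene, and those of CXCL2, CXCL3, CXCL5 and CXCL8 partly. The 6 neutrophil-attracting ligands share a short stretch in the printed bases. Capitals mark GGAATTTCC in these 6 genes, a core sequence of the kind bound by NF-kappaB. In CXCL8 they also mark TGACTCA, the AP-1 element, at the left end and TATAAA, the TATA box, at the right, and in CCL20 TATAAA alone.
CXCL1: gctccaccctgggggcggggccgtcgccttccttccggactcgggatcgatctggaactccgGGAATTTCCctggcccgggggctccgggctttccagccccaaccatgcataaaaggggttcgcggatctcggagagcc
CXCL2: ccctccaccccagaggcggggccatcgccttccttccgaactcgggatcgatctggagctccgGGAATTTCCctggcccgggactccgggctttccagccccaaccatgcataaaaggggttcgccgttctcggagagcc
CXCL3: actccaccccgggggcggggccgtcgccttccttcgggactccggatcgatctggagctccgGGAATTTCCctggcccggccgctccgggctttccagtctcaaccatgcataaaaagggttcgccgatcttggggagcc
CXCL8: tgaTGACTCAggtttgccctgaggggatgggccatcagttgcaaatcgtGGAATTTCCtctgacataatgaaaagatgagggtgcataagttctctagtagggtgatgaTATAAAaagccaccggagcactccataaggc
CXCL5: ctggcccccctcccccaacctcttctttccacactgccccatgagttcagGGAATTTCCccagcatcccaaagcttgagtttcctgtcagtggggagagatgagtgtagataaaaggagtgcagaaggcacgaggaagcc
CXCL6: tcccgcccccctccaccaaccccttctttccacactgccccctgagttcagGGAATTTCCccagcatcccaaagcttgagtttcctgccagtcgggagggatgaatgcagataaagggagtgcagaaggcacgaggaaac
CCL20: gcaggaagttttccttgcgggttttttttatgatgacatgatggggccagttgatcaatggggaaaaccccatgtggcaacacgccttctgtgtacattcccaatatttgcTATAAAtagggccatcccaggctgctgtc
These windows are, in the same order, chr4:73869253-73869392 (plus strand), chr4:74099196-74099335 (minus strand), chr4:74038690-74038829 (minus strand), chr4:73740429-73740568 (plus strand), chr4:73998678-73998817 (minus strand), chr4:73836538-73836677 (plus strand) and chr2:227813702-227813841 (plus strand).

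Searched on both strands, GGAATTTCC was present in the promoters of CXCL1, CXCL2, CXCL3, CXCL5, CXCL6 and CXCL8, with its first base between 77 and 91 bases before the start (positions -77 and -91). Of all 35116 promoters of the same length in the table, 162 (0.461%) held it. This sequence was searched for after the promoters had been read. The wider kappaB consensus was found in 11.3% of all promoters and in 6 of the 7 here: CCL20 has a match at position -79 on the opposite strand, which overlaps no GGAATTTCC, while CXCL8 has GGAATTTCC but not the full consensus. In CXCL1, CXCL2, CXCL3, CXCL5 and CXCL6 the consensus overlaps GGAATTTCC. TGACTCA was found in CXCL8 alone among the 7 (4.95% of all promoters) and TATAAA in CXCL8 and CCL20 (11.5% of all promoters). Over the full 300-base window, aligned end to end, CXCL1 and CXCL3 were identical at 82.5% of alignment columns and CXCL5 and CXCL6 at 83.1%, against 45.2% for CXCL1 and CXCL8. These are matches of letters and show no binding.

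In the vehicle libraries the 10 ligands had summed normalised counts of 6136 and 5908. A normalised count is the number of reads of a gene divided by a size factor of its library. CXCL8 and CXCL1 held most of these reads. CXCL8 had 48.2% ± 1.42 and CXCL1 33.2% ± 0.254 of the summed ligand reads (SD, n = 2 each). Levels of different genes were compared per kilobase of the coding transcript in GENCODE 29. On that scale CXCL1 stood first in vehicle at 1825 ± 62.7 normalised counts per kilobase, with CXCL8 next at 1702 ± 4.54 (SD, n = 2 each). CCL2 followed at 307 ± 3.68, CXCL16 at 231 ± 38.1, CCL20 at 98.7 ± 12.9, CXCL3 at 95.3 ± 11.1, CXCL2 at 48.0 ± 2.71 and CX3CL1 at 40.0 ± 3.28 (SD, n = 2 each). Of the neighbours in this order, CCL20 and CXCL3 overlapped between libraries and the other pairs did not.

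Under octanoate the order of these levels per kilobase was different. CXCL8 stood first at 3261 ± 252, then CXCL1 at 2545 ± 46.9 and CXCL3 at 528 ± 35.5 normalised counts per kilobase (SD, n = 2 each). Next came CXCL16 at 251 ± 11.3, then CCL20 at 171 ± 11.6 and CXCL2 at 112 ± 8.39 (SD, n = 2 each). CX3CL1 at 61.2 ± 2.73 and CCL2 at 58.4 ± 18.5 (SD, n = 2 each) were the lowest and overlapped between libraries. In the ranks of these 8 ligands CCL2 thus went from 3 to 8 and CXCL3 from 6 to 3.

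Of the 10 ligands, 8 had a mean normalised count of at least 10 and entered a limma fit over 20250 genes, on log2(normalised count + 1). In that fit 6 ligands were called higher and 1 lower under octanoate at a Benjamini-Hochberg adjusted p under 0.05. Over all tested genes limma called 29.9%, 16.2% higher and 13.7% lower. The same 7 ligands were called by edgeR and DESeq2 on recovered reads, which called 32% and 30.3% of the genes they tested. Octanoate and vehicle libraries were fully separated for 7 of the 8 ligands and for 63.1% of all tested genes. Calls of at least 2-fold were made for 3 of the 8 and for 4.21% of all tested genes. The median log2 difference of the 8 was 0.70, beside 0.01 over all tested genes. Because the ligands were chosen with this comparison known, no weight rests on these counts.

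**Figure D1:**
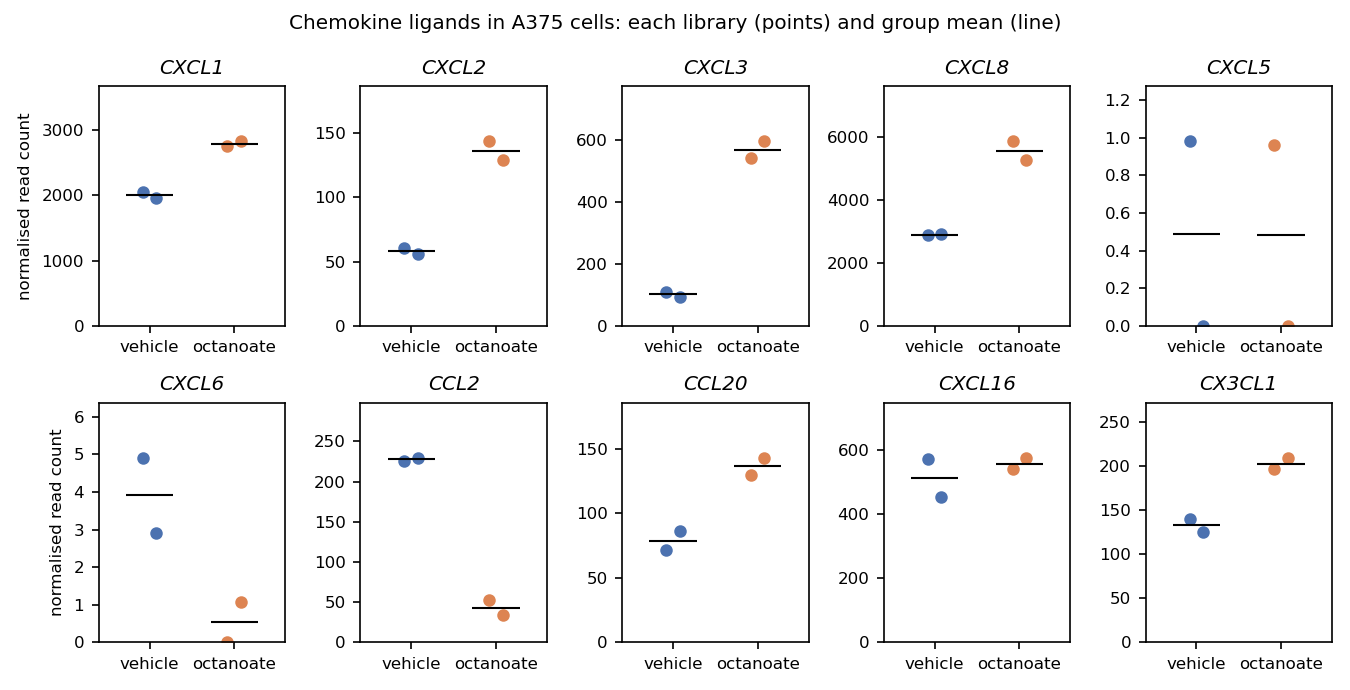
Normalised read counts of the 10 ligands (vertical axes, each from 0 and on its own scale) in the vehicle and octanoate libraries. Points are the 2 libraries of a group and lines their mean. The octanoate points lie above the vehicle points for CXCL1, CXCL2, CXCL3, CXCL8, CCL20 and CX3CL1 and below them for CCL2, and CXCL5 and CXCL6 stay under 5 counts in every library.

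CXCL3, a neutrophil attractant also known as GRO-gamma, had the largest positive difference. There were 111 normalised counts in vehicle 1, 94.0 in vehicle 2, 541 in octanoate 1 and 595 in octanoate 2. Both octanoate libraries were thus several times above both vehicle libraries. The ratio of the group means was 5.54 and the log2 difference 2.46 (SE 0.13).

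CXCL2, or GRO-beta, encodes a close relative of CXCL3. It had 60.9 and 56.2 normalised counts in vehicle and 143 and 129 in octanoate, with no overlap between the groups. The log2 difference was 1.20 (SE 0.18), smaller than that of CXCL3 on the same scale. The ratio of CXCL2 to CXCL3 counts went from 0.549 and 0.598 in vehicle to 0.265 and 0.217 in octanoate.

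CXCL1, or GRO-alpha, is the most abundant of the 3 GRO ligands and differed least. It had 2050 and 1953 normalised counts in vehicle and 2756 and 2829 in octanoate, again with no overlap. The log2 difference was 0.48 (SE 0.06). The ratio of CXCL1 to CXCL3 counts therefore narrowed, from 18.5 and 20.8 in vehicle to 5.09 and 4.75 in octanoate. CXCL1 and CXCL2 transcripts share a stretch of 207 bases at 95.2% identity, so part of their reads may have been lost or misassigned in counting. Apart from this, no alignment of at least 100 bases and 95% identity over its length joined CXCL3, CXCL8 or another ligand to a different GENCODE 29 gene. Longer alignments under 95% identity were not kept. Shorter like stretches within them, also between CXCL3 and the other GRO ligands, may thus have been missed.

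CXCL8, a ligand of both CXCR1 and CXCR2, was the ligand with the most reads in all 4 libraries. It had 2897 and 2907 normalised counts in vehicle, nearly equal, and 5864 and 5256 in octanoate. The log2 difference was 0.94 (SE 0.06). Its share of the summed ligand reads was 47.2% in vehicle 1 (95% Wilson interval 46.0 to 48.4) and 49.2% in vehicle 2 (48.0 to 50.5). In octanoate 1 it was 57.3% (56.4 to 58.3) and in octanoate 2 53.8% (52.8 to 54.8). These intervals cover counting error only.

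CXCL5 and CXCL6, the remaining ligands of the cluster, were close to undetected. CXCL5 had 1 read in vehicle 1 and 1 in octanoate 1 and none in the other libraries, which allows no comparison, since a count of 0 allows up to 3 reads. CXCL6 had 5 and 3 reads in vehicle and 0 and 1 in octanoate. The ratio of octanoate to vehicle for CXCL6 was 0.131, with an exact 95% counting interval from 0.00295 to 0.975. Exons of CXCL6 overlap those of the pseudogene PPBPP1 by 94 bases on the same strand. Both promoters hold the GGAATTTCC printed above, as do those of the 4 abundant ligands of the cluster.

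**Figure D2:**
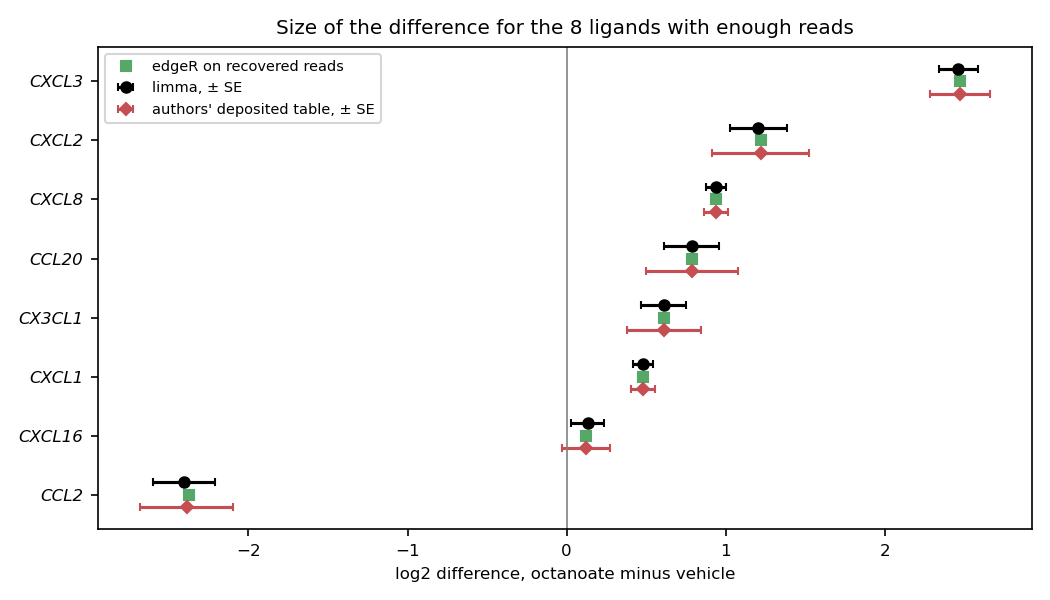
Log2 difference, octanoate minus vehicle (horizontal axis), of the 8 ligands with a mean count of at least 10, by limma (circles, ± SE), by edgeR on recovered reads (squares) and in the authors' deposited table (diamonds, ± SE). The 3 sources place each ligand at nearly the same value, from CXCL3 at 2.46 to CCL2 at -2.40 by limma.

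CCL2, the monocyte attractant MCP-1 and ligand of CCR2, was the 1 ligand called lower. It had 226 and 230 normalised counts in vehicle and 52.9 and 33.6 in octanoate. The vehicle libraries were nearly equal, and the octanoate libraries, with 55 and 31 reads, differed more from each other but stayed far below. The ratio of group means was 0.190 and the log2 difference -2.40 (SE 0.19). Its share of the summed ligand reads was 3.68% (95% Wilson interval 3.24 to 4.18) in vehicle 1 and 3.89% (3.43 to 4.40) in vehicle 2. In octanoate 1 this share was 0.518% (0.398 to 0.673) and in octanoate 2 0.344% (0.242 to 0.488). For each CCL2 count there were 12.8 and 12.7 CXCL8 counts in vehicle, against 111 and 156 in octanoate, not corrected for length.

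CCL20, the ligand of CCR6, which is found on Th17 and some dendritic cells, was higher under octanoate. It had 71.7 and 86.2 normalised counts in vehicle and 130 and 143 in octanoate, and the groups did not overlap. The log2 difference was 0.79 (SE 0.17). It was not called with a variance prior that ignores the mean count.

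CX3CL1, or fractalkine, and CXCL16 are the ligands of the set made as membrane proteins, with the chemokine domain on a mucin stalk from which proteases release it. CX3CL1 had 140 and 125 normalised counts in vehicle and 196 and 209 in octanoate, a log2 difference of 0.61 (SE 0.14) with no overlap. CXCL16, the ligand of CXCR6, had 573 and 453 in vehicle and 541 and 577 in octanoate. The groups of CXCL16 overlapped, and its log2 difference of 0.13 (SE 0.10) was less than the gap of 0.34 between the vehicle libraries. Without vehicle 2 the CXCL16 difference was -0.04 and without vehicle 1 0.30, so a small change in either direction was not detectable here. Exons of CXCL16 overlap those of MED11 by 85 bases on the opposite strand, and whether counting used the strand is not given in the sources used here.

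In the authors' deposited table the log2 fold change was 2.47 for CXCL3 (SE 0.19), 1.22 for CXCL2 (SE 0.31), 0.94 for CXCL8 (SE 0.07) and 0.48 for CXCL1 (SE 0.08). The authors' deposited table also gives 0.79 for CCL20 (SE 0.29), 0.61 for CX3CL1 (SE 0.23), 0.12 for CXCL16 (SE 0.15) and -2.39 for CCL2 (SE 0.29). These values come from the same 4 libraries and are not a second measurement. Their standard errors were larger than those of limma for each of the 8 ligands.

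Summed over the 6 ligands of the chromosome 4 cluster, normalised counts were 5125 and 5014 in vehicle and 9305 and 8810 in octanoate, a ratio of means of 1.79. Over CCL2, CCL20, CXCL16 and CX3CL1 the sums were 1011 and 894 in vehicle and 920 and 962 in octanoate, a ratio of 0.988. In this second sum, which overlapped between the groups, the lower CCL2 stood against the higher CCL20 and CX3CL1. The sums follow the most abundant members, CXCL8 and CXCL1 in the first and CXCL16 in the second.

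**Figure D3:**
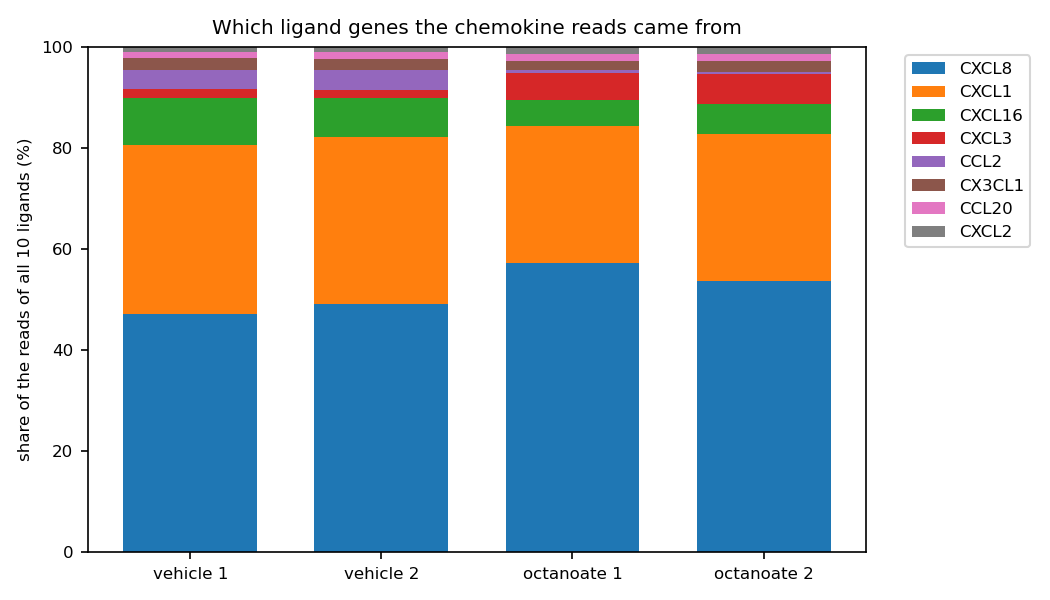
Share of the reads of all 10 ligands (vertical axis, %) that came from each ligand in each library, not corrected for length. CXCL8 takes 48.2% on average in vehicle and 55.6% in octanoate, CXCL3 1.70% and 5.69%, and CCL2 3.78% and 0.431%. CXCL5 and CXCL6, under 0.1% in each group's mean, are not drawn.

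The 3′ untranslated regions of the ligands were searched for ATTTA, the core of AU-rich elements, in the coding transcript of each gene in GENCODE 29. CXCL2 held 10 copies in 721 bases and CXCL3 7 copies in 673 bases, or 13.9 and 10.4 per kilobase. CXCL8 had 9 copies (7.19 per kilobase), CXCL1 5 (7.08), CCL20 3 (6.65), CXCL5 11 (5.51) and CXCL6 6 (5.36). CCL2 had 1 copy (2.66 per kilobase), CXCL16 1 (1.02) and CX3CL1 2 (0.996). The median over 18212 coding genes with at least 50 bases of 3′ untranslated region was 1.44 per kilobase. The ligands of the chromosome 4 cluster and CCL20 thus stood between the 91.2 and 99.3 percentiles of coding genes, CCL2 at 68.6, CXCL16 at 43.5 and CX3CL1 at 43.1. Copies of this sequence were counted as letters, and mRNA stability was not measured.

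The chemokine cluster was set among its neighbours in a window of 500 kb to either side, chosen with the rise of AREG known. Outside the ligands, 4 genes of this window were tested. Of these, 3 rose under octanoate, beside 16.2% of all tested genes, and since the window was set around a known rise nothing is read from that count. MTHFD2L, a mitochondrial folate enzyme whose start lies about 15 kb beyond that of CXCL2, had 792 and 768 normalised counts in vehicle and 1166 and 1185 in octanoate (log2 difference 0.59, SE 0.08, adjusted p 1.91e-06 in limma). EREG, which encodes epiregulin, a ligand of the EGF receptor, had 29.4 and 25.2 in vehicle and 77.0 and 103 in octanoate (log2 difference 1.67, SE 0.24, adjusted p 9.04e-06 in limma). AREG, which encodes amphiregulin, another ligand of that receptor, rose by 4.53 on the log2 scale (SE 0.08, adjusted p 6.40e-22 in limma) and lies 705 kb from the CXCL8 start. ANKRD17, 482 kb on the other side of CXCL8, had a difference of 0.00 (SE 0.06, adjusted p 0.982 in limma). Exons of MTHFD2L overlap a gene on the opposite strand. The albumin family genes ALB, AFP and AFM and the platelet chemokine genes PF4, PF4V1 and PPBP of the same stretch had too few reads to be tested.

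**Figure D4:**
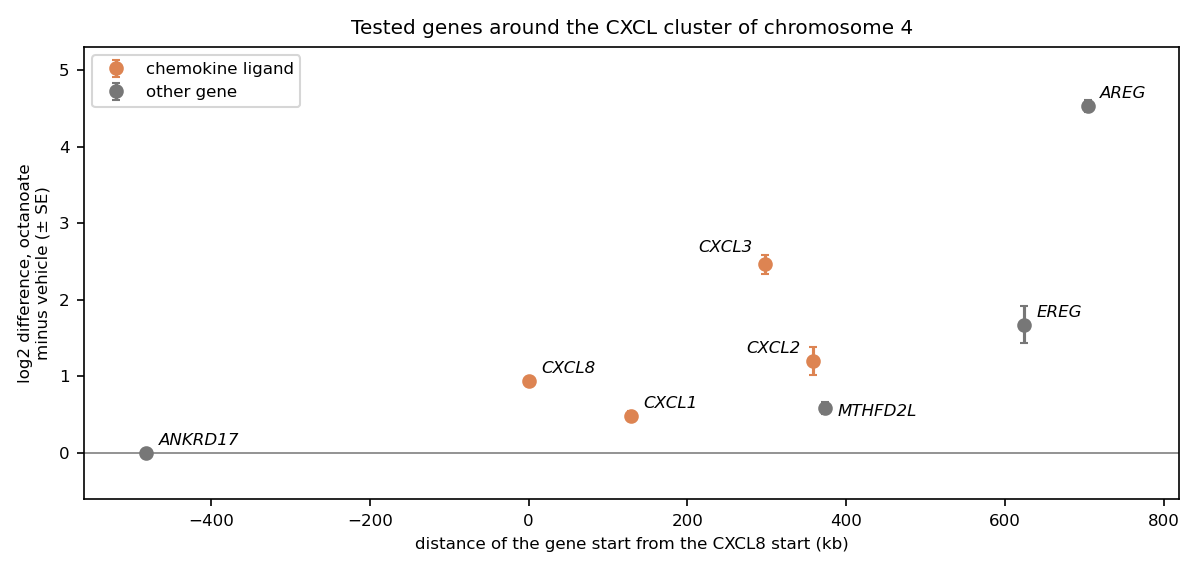
Log2 difference, octanoate minus vehicle, with SE (vertical axis), of the tested genes around the CXCL cluster, by distance of their start from the CXCL8 start in kb (horizontal axis). The 4 tested ligands (orange) lie between 0.48 for CXCL1 and 2.46 for CXCL3, and AREG, at 4.53 and 705 kb from CXCL8, is the highest.

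Most other chemokine ligands had few reads in these cells, with the exception of CCL28. Of 38 further ligand genes, 36 were in the table and 3 had a mean of at least 10. CCL28, an epithelial chemokine, had 859 and 858 normalised counts in vehicle and 794 and 756 in octanoate (log2 difference -0.15, SE 0.08, adjusted p 0.177 in limma). XCL1, or lymphotactin, had 68.7 and 58.1 in vehicle and 86.6 and 66.1 in octanoate (log2 difference 0.26, SE 0.21, adjusted p 0.393 in limma). Transcripts of XCL1 share 565 bases with XCL2, so its count is uncertain. CCL26, the eosinophil attractant eotaxin-3, was at 17.7 and 25.2 in vehicle and 6.74 and 10.8 in octanoate. It fell by 1.21 on the log2 scale (SE 0.44, adjusted p 0.0428 in limma). That call was lost without vehicle 1 (adjusted p 0.0686), without vehicle 2 (0.244) and without octanoate 1 (0.228), and also with equal library totals (0.0502), without a filter (0.188) and with a variance prior that ignores the mean count (0.101). The other 33 ligand genes had between 0 and 31 reads over all 4 libraries, and 11 of them had none. CXCL9, CXCL10 and CXCL11, the interferon-induced attractants of T cells, had 5, 4 and 7 reads in all.

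Few reads were counted for most chemokine receptors as well, among them known receptors of these ligands. CXCR1 had 0 and CXCR2 16 reads over the 4 libraries, CCR2 3, CCR6 0 and CX3CR1 4. Exons of CCR6 overlap those of Z94721.2 by 3008 bases on the same strand, and CXCR1 and CXCR2 share 279 bases at 95.7% identity. Reads of these 3 receptors may thus have been lost or misassigned in counting. Of 23 receptor genes, 4 had a mean of at least 10, and limma called none at an adjusted p under 0.05. Over all tested genes it called 29.9%, and with only 4 receptors tested nothing is read from that count. Of these 4, CXCR6 and CCR10 had an unadjusted p under 0.05 in limma and in edgeR, and edgeR called none. DESeq2 gave no unadjusted p under 0.05 and an adjusted p for CCR10 alone (0.283). CXCR6, ACKR1 and ACKR4 thus could not be called by DESeq2. CXCR6, the receptor of CXCL16, had 18.7 and 20.3 normalised counts in vehicle and 34.6 and 33.6 in octanoate (log2 difference 0.78, SE 0.32, adjusted p 0.0667 in limma). CCR10, a receptor of CCL28, had 36.3 and 39.7 in vehicle and 54.9 and 59.6 in octanoate (log2 difference 0.58, SE 0.24, adjusted p 0.0729 in limma). Exons of CCR10 overlap 2 genes on the opposite strand. With the variance prior that ignores the mean count both were called in limma, CXCR6 at an adjusted p of 0.0294 and CCR10 at 0.0494. That prior called 1625 of all tested genes in place of 6048. The atypical receptors ACKR1 (log2 difference -0.75, SE 0.51, adjusted p 0.286 in limma) and ACKR4 (0.32, SE 0.43, adjusted p 0.625 in limma) overlapped between the groups.

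**Figure D5:**
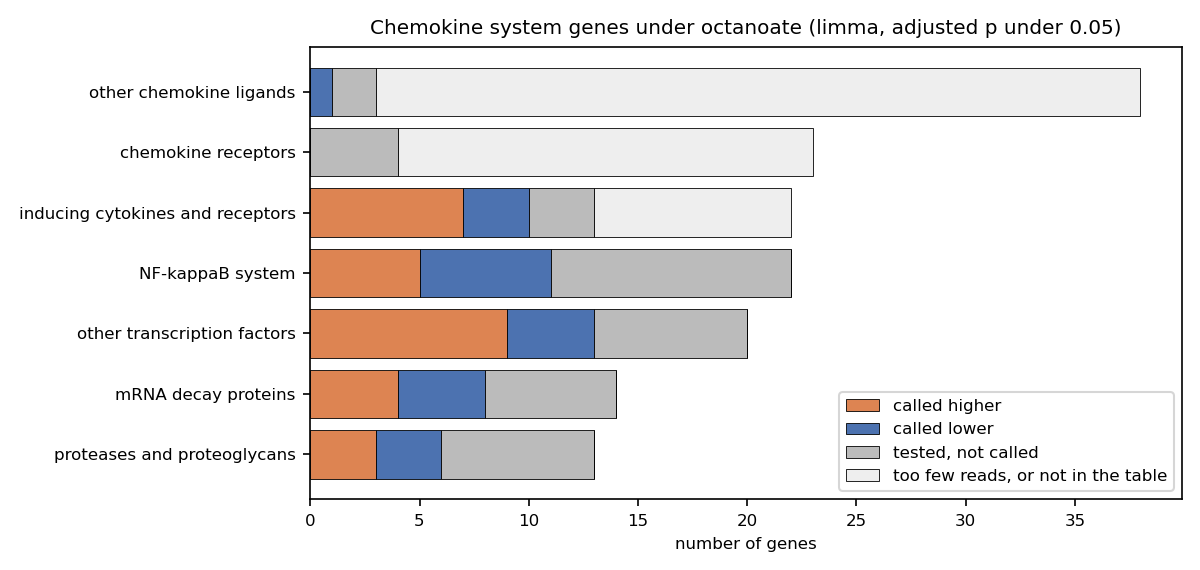
Number of genes (horizontal axis) of 7 chemokine system lists that limma called higher or lower under octanoate, tested without a call, or not tested. Cytokines and transcription factors hold the most genes called higher, 7 and 9, beside 16.2% called higher over all tested genes. Most other ligands and receptors had too few reads.

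Cytokines known to induce chemokine genes, with their receptors, changed in part. Of 22 such genes 13 were tested, 7 rose and 3 fell (IL1RAP, IL17RA and IL17RC), with a median log2 difference of 0.19, beside 29.9% called over all tested genes. With the variance prior that ignores the mean count, 5 were called in place of 10, and over all tested genes 1625 in place of 6048. IL1A rose by 2.93 (SE 0.07, adjusted p 5.09e-19 in limma) and IL1B by 3.54 (SE 0.12, adjusted p 4.81e-17 in limma) on the log2 scale. Both encode interleukin-1, a strong inducer of CXCL8 and CXCL1. LIF, an interleukin-6 family cytokine, rose by 0.91 (SE 0.06, adjusted p 1.65e-11 in limma), from 3515 and 3402 normalised counts to 6584 and 6380. TNFRSF1B, a receptor of tumour necrosis factor, rose by 1.03 (SE 0.08, adjusted p 3.18e-10 in limma), from 1032 and 920 to 2132 and 1871. Exons of LIF overlap 2 genes on the opposite strand.

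All 22 genes of the NF-kappaB system were tested, and 5 rose and 6 fell, with a median log2 difference of 0.01. Over all tested genes 16.2% were called higher and 13.7% lower. IRAK2, a kinase of the interleukin-1 receptor pathway, rose by 1.15 (SE 0.10, adjusted p 1.80e-09 in limma). NFKB2, which encodes the p100 subunit, rose by 0.52 (SE 0.06, adjusted p 4.80e-07 in limma). TRAF1, a signalling adaptor, fell by 0.56 on the log2 scale (SE 0.08, adjusted p 7.20e-06 in limma), and BCL3, a nuclear IkappaB protein, fell by 0.55 (SE 0.09, adjusted p 3.04e-05 in limma). REL, NFKBIZ and TNFAIP3 were the other members that rose. Exons of REL overlap those of AC010733.2 by 5702 bases on the same strand. Those of TNFAIP3 overlap a gene on the opposite strand, so the counts of REL and TNFAIP3 are uncertain. RELA, which encodes the p65 subunit, was tested and not called. With the variance prior that ignores the mean count, 1 member was called in place of 11, and NFKB2, TRAF1 and BCL3 were not. That prior called 1625 of all tested genes in place of 6048. Without a filter on low counts 6 were called.

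Other transcription factors known to act at chemokine promoters were tested in full, 20 genes. Of these, 9 rose and 4 fell (JUND, CEBPD, STAT3 and MITF), with a median log2 difference of 0.15. Over all tested genes 16.2% were called higher and 13.7% lower. JUN, a subunit of AP-1, rose by 1.38 (SE 0.07, adjusted p 5.34e-14 in limma), from 1648 and 1514 normalised counts to 4221 and 4015. FOSL1, another AP-1 subunit, rose by 1.03 (SE 0.06, adjusted p 1.88e-12 in limma), and its transcripts share 412 bases with the pseudogene FOSL1P1. The stress factor ATF3 rose by 1.26 (SE 0.09, adjusted p 1.67e-10 in limma) and EGR1, an early response factor, by 1.07 (SE 0.09, adjusted p 9.90e-10 in limma). Without the dependence of the variance prior on the mean, 6 of the list were called in place of 13, and 1625 of all tested genes in place of 6048.

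The list on mRNA decay holds 14 genes, not all of which encode proteins that bind or cut mRNA. Under octanoate 4 of them rose, among them the kinase gene MAPKAPK2, and 4 fell. Over all tested genes 16.2% were called higher and 13.7% lower. For the list as a whole the median of the log2 differences was -0.06. ZC3H12A, the endonuclease regnase-1, rose by 0.82 (SE 0.11, adjusted p 2.54e-06 in limma), from 348 and 280 normalised counts to 541 and 560. ZFP36, or tristetraprolin, rose by 0.51 (SE 0.08, adjusted p 3.36e-05 in limma) and its relative ZFP36L1 by 0.30 (SE 0.06, adjusted p 0.000273 in limma). ZFP36L2 fell by 0.23 on the log2 scale (SE 0.06, adjusted p 0.00295 in limma), which was not called without octanoate 2 (adjusted p 0.0555) or without a filter (0.0567). Limma called 5 of the 14 without octanoate 1, 5 without octanoate 2 and 3 without a filter. With the variance prior that ignores the mean count it called 0 (6 had an unadjusted p under 0.05), and 1625 of all tested genes in place of 6048. On recovered reads, edgeR and DESeq2 called 8 each.

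Among 13 proteases that trim or release chemokines and proteoglycans that hold them at the cell surface, 3 rose and 3 fell. Their median log2 difference was 0.09. Over all tested genes 16.2% were called higher and 13.7% lower. Syndecan genes moved in opposite directions: SDC4 rose by 0.61 (SE 0.06, adjusted p 6.36e-09 in limma), whereas SDC2 fell by 0.68 on the log2 scale (SE 0.06, adjusted p 1.51e-08 in limma). Matrix metalloproteinases did so too, MMP1 with a rise of 1.09 (SE 0.11, adjusted p 7.64e-08 in limma) and MMP2, which fell by 0.57 (SE 0.06, adjusted p 1.96e-07 in limma). ADAM10 and ADAM17, the proteases that release CX3CL1 and CXCL16, were tested and not called. Both have exons that overlap a gene on the opposite strand, ADAM17 and IAH1 by 1323 bases. Exons of MMP1 overlap WTAPP1 on the opposite strand. With the variance prior that ignores the mean count, 3 of the list were called in place of 6, and MMP2 was not (adjusted p 0.0601). That prior called 1625 of all tested genes in place of 6048.

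The genes whose pattern over the 4 libraries was most like that of CXCL3 were sought by the root-mean-square distance of centred log2 values, over 13481 candidates whose mean reached 100. They were the phosphodiesterase gene PDE2A (0.05), a gene known only by a clone name (0.05) and TFPI2 (0.08), which encodes a protease inhibitor. For CCL2 they were the galactosyltransferase gene B3GALT2 (0.12), the keratin gene KRT14 (0.22) and the alkaline phosphatase gene ALPP (0.25). Exons of PDE2A, TFPI2, B3GALT2 and ALPP overlap a gene on the opposite strand, and KRT14 shares sequence with 3 other genes, so these counts are uncertain. With 4 libraries in 2 groups this measure reflects mainly a like difference between the groups.

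The 4 libraries held between 67785956 and 78005035 recovered reads, and the CXCL3 counts thus rest on 97 to 562 reads and the CCL2 counts on 31 to 237. The melanoma label was checked on lineage markers: SOX10 had 34072 to 41363 normalised counts and CSPG4 42355 to 60679.8, while the pigment genes were low, with 2 to 4 reads for TYR, 65.8 to 98.2 counts for PMEL and 34.9 to 52.0 for MLANA. Of the 13 lineage markers 12 were tested. PMEL, CSPG4 and AXL were called higher and MITF, S100B and NGFR lower, S100B by a log2 difference of -1.12. The list summed to 120320 to 130420 counts in vehicle and 133150 to 142370 in octanoate. Of the leukocyte markers PTPRC had 2 to 11 reads and CD3E 1 to 3. Of the 9 markers 4 were tested and 1 was called higher (LYZ), with sums of 662 to 720 counts in vehicle and 801 to 853 in octanoate. Most of these sums was LYZ, with 635 and 574 counts in vehicle and 700 and 749 in octanoate. Its exons overlap a gene on the opposite strand. Endothelial markers summed to 625 to 626 and 823 to 843, with PECAM1 and VWF called higher of 6 tested. Transcripts of VWF share 2891 bases with VWFP1 at 97.2% identity, so the VWF count is uncertain. Fibroblast markers summed to 2557 to 2624 and 2244 to 2387, with COL1A1 and COL1A2 called lower of 6 tested. Keratinocyte markers summed to 5684 to 6715 and 4793 to 6447, with KRT14 called lower of 2 tested and KRT1 at 0 in every library. KRT10, not called, made up most of these sums, with 5580 and 4723 counts in vehicle and 6173 and 4566 in octanoate. Beside these marker calls, limma called 16.2% of all tested genes higher and 13.7% lower. The part of these markers in the ligand differences was not tested. In bulk RNA, fewer cells making a transcript and less transcript per cell cannot be told apart.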

How the data were processed

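RNA of 4 A375 libraries, 2 with octanoate and 2 with vehicle, was sequenced. The submitters' processing notes name bcl2fastq 2.17, Trim Galore, STAR 2.4, Picard, HTSeq 0.9.1, DESeq2 and the build hg38, without roles. The deposited signal per gene is, per its file name, a DESeq2-normalised count. All positive values (100% in each library, tolerance 0.01) were whole multiples of 1 step, which gave the whole reads. The authors' deposited comparison gives, per gene, p-values, a log2 fold change, its SE, a test score and the mean signal.

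Normalised counts were compared with limma 3.58.1 (R 4.3.3) on log2(value + 1), with an intensity trend, for 20250 genes with a mean of at least 10, two-sided, with Benjamini-Hochberg adjustment. Log2 differences understate changes of low genes. An exact permutation test of 2 against 2 cannot give a p below 0.333. Replicates were kept apart, since chi-square per degree of freedom was 4.77 and 6.50 within groups. In simulated counts for these 20250 genes, 56 genes were changed by 0.5, 73 by 1 and 71 by 2 (log2). Of these, 73.2%, 69.9% and 94.4% were recovered, with 10 false among 169 calls. Far fewer genes were changed than the 29.9% called in the data, and dispersions followed the mean count without scatter between genes. These rates therefore need not hold for the calls made here.

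Other settings tried were pseudocounts of 0.5 and 5, no filter, a minimum mean of 50, TMM scaling, equal totals, no intensity trend, the replicate number as block, each library left out, and edgeR 4.0.16 (6480 genes called) and DESeq2 1.42.0 (4947) on recovered reads. Positions, transcript lengths and overlaps come from GENCODE 29, shared sequence from blastn 2.17.0, promoters from RefSeq. Members and lists were chosen with earlier results of these data known. The text names all 10 ligands, other ligands and receptors with a mean of at least 10, and the 4 called genes with the smallest p of each other list; further names were chosen after their values were seen.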

Additional observations from a re-analysis of the deposited data

How the results depend on the processing

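The counts of ligands called higher (6) and lower (1) were the same under 13 of the 14 alternatives. CCL20 was not called without the intensity trend. Over the alternatives the log2 difference ran from 2.34 to 2.58 for CXCL3, 1.13 to 1.28 for CXCL2, 0.86 to 1.01 for CXCL8, 0.45 to 0.52 for CXCL1, 0.65 to 0.92 for CCL20, 0.53 to 0.69 for CX3CL1 and -2.72 to -2.08 for CCL2. Without a filter 2595 genes were called in place of 6048, with 30 of the listed chemokine system genes in place of 49, 6 of the NF-kappaB system, 3 of the mRNA decay list and 0 other ligands. Without the intensity trend 1625 genes were called, 17 of the listed genes, 5 cytokines and receptors, 1 of the NF-kappaB system, 6 other factors, 0 of the mRNA decay list, 3 proteases and proteoglycans, 0 other ligands and 2 chemokine receptors. Other ligands also came to 0 with equal totals. They came to 0 with a minimum mean of 50, which leaves CCL26 untested, and with DESeq2, which gave CCL26 no adjusted p. They came to between 0 and 1 with 1 library left out. Leaving out 1 library gave 5 to 7 mRNA decay genes, and log2 differences from -1.51 to 0.0043 for ACKR1 and from -0.014 to 0.66 for ACKR4. Where the setting itself does not remove a gene from the test, the cause was not tested. What the replicate numbers mark is not stated. Same-numbered libraries deviated together with a Pearson r of 0.13 over 20250 genes. With the replicate number as a block, 8376 genes and 1 chemokine receptor (CXCR6) were called. Of 369 values of 27 tested genes under alternatives, 348 kept direction and side of the threshold. Genes with few reads, such as CXCL5 and most receptors, were not tested, and the interval of CXCL6 covers counting error only, not the spread between replicates.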
